A study of Homo sapiens with 3 samples.

Results

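The glycolysis enzymes described here are the products of 10 genes: HK2, ALDOA, TPI1, GAPDH, PGK1, PGAM1, ENO1, PKM, LDHA and LDHB. Edited clusters were assigned to them when the deposited name of the cluster gave exactly 1 of these symbols, so that pseudogenes were not included. This gave 49 of 40843 clusters, with 14 of 14295 in replicate 1, 20 of 15181 in replicate 2 and 15 of 11367 in replicate 3. No cluster of these genes carried the name of a further gene, and 46 of the 49 lie in exons.

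Glycolysis splits glucose into pyruvate in the cytosol and yields ATP and NADH, and lactate dehydrogenase turns pyruvate into lactate while restoring NAD+. Its mRNAs are among the most abundant in cultured cells. RBFOX2 is a splicing regulator that recognises the GCAUG motif, mostly in introns beside alternative exons and also in mature mRNA. In STAMP, a protein of interest carries APOBEC1, a deaminase that turns cytidines of RNA nearby into uridines, so that edits mark where the fusion has been.

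All 3 samples belong to 1 group, replicates 1 to 3 of HEK293T cells (HEK293XT, a lentiviral packaging subline of a human embryonic kidney line) with a genotype labelled WT. Each expressed the RBFOX2-APOBEC1 fusion after induction with doxycycline for 72 h, and the labels give the treatment as transient transfection although the growth protocol speaks of stable lines. Cells without the fusion, or with APOBEC1 alone, were not analysed here, so each value is set against other clusters or other replicates and not against a background of editing. The study calls these samples biological replicates, and the labels do not say whether they were separate cultures. RBFOX2, whose fusion was introduced, held 17, 16 and 16 clusters. Of 5 genes often seen in this line, NEFM held 3, 2 and 3 clusters, NEFL 3, 2 and 2, VIM 1 in replicate 3, and KRT8 and KRT18 none. A gene without a cluster is not shown to be unexpressed, because only windows with enriched editing were kept.

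The glycolysis genes split into 5 with recurrent editing (PGK1, LDHA, LDHB, PKM and PGAM1), 1 with scattered editing at low depth (HK2), 3 with 1 cluster in 1 replicate (ALDOA, TPI1 and ENO1) and 1 with no cluster (GAPDH). PGK1, the first enzyme of the pathway to make ATP, held most, with 3, 5 and 5 clusters in replicates 1, 2 and 3, or 4.33 ± 1.15 (SD, n = 3). In replicates 2 and 3 these counts include an intron cluster described below. LDHA, the muscle type subunit of lactate dehydrogenase, held 2, 3 and 4 clusters, and LDHB, the heart type subunit, 3, 3 and 2. PKM, pyruvate kinase, held 2, 2 and 1, and PGAM1, phosphoglycerate mutase, 1, 2 and 2. HK2, the hexokinase that traps glucose as glucose 6-phosphate, held 2, 3 and 1. GAPDH, the dehydrogenase that makes NADH, held 0 in each replicate, although it is one of the most abundant mRNAs of most cell types.

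**Figure D1:**
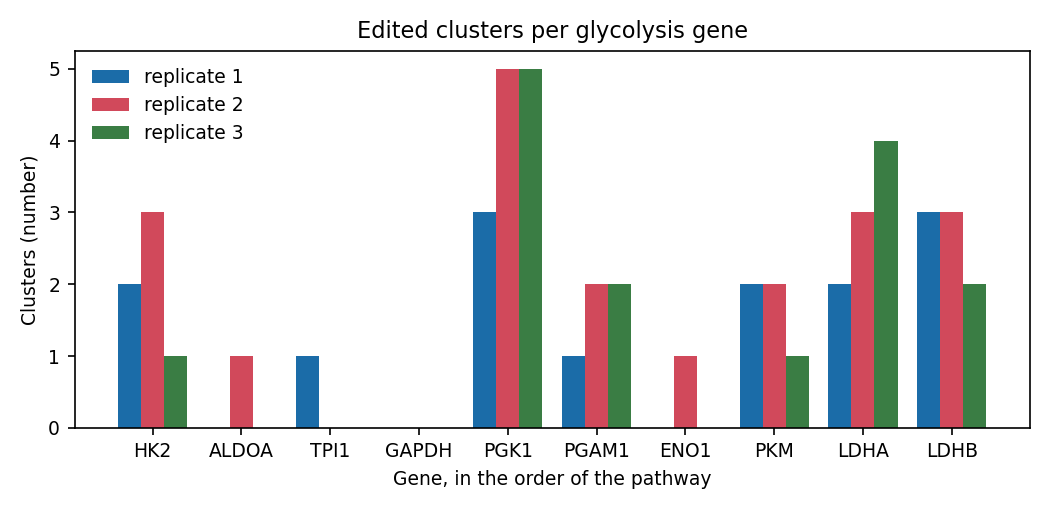
Number of edited clusters (vertical axis) in each glycolysis gene (horizontal axis, in the order of the pathway), with 1 bar per replicate. PGK1 reaches 5 clusters in replicates 2 and 3, ALDOA, TPI1 and ENO1 have 1 cluster in 1 replicate, and GAPDH has none.

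These clusters were read more deeply than most. The median of their mean read depth was 695 in replicate 1, 481 in replicate 2 and 617 in replicate 3, against 25.1, 24.7 and 21.1 over all clusters. In 5 glycolysis clusters, described below, the reads over C bases fell far short of the depth. Without these 5 the glycolysis medians were 278, 363 and 617. A mean read depth of at least 50 was reached by 81.7% ± 4.32 of the glycolysis clusters (SD, n = 3) and by 27.2% ± 2.37 of all clusters. Depth is not scaled to library size, and the amount of an mRNA and the number of copies that were edited cannot be told apart from called clusters alone.

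The edit fraction, which is the number of edited bases over all C bases covered by reads, was low in most of the glycolysis clusters. Its median was 1.02%, 0.683% and 0.444% in replicates 1, 2 and 3, beside 1.64%, 1.65% and 1.80% over all clusters. Without the 5 clusters in which reads over C bases fell far short of the depth, the glycolysis medians were 0.551%, 0.586% and 0.444%. Summed over the genes, 405 of 88778, 585 of 237109 and 462 of 168684 covered C bases were edited, a pooled edit fraction of 0.456%, 0.247% and 0.274%, beside 0.939%, 0.934% and 0.997% over all clusters. Replicate 1 was highest, and it lacked a deep intron cluster of PGK1 that replicates 2 and 3 hold. Without that cluster the pooled edit fraction was 0.456%, 0.396% and 0.405%.

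Over all clusters the edit fraction fell with depth, from medians of 4.88%, 5.13% and 5.08% at a depth under 10 to below 0.5% at 500 or more, so the medians were also set side by side within depth classes. At a depth of 50 to 500, the glycolysis clusters had medians of 0.827%, 0.823% and 1.01% (3, 6 and 5 clusters), and all clusters of that class 0.787%, 0.803% and 0.800%. At 500 or more, the medians were 0.525%, 0.352% and 0.350% (8, 10 and 8 clusters) beside 0.466%, 0.490% and 0.473%. By these medians the glycolysis clusters of the deepest class were higher in replicate 1 and lower in replicates 2 and 3. Pooled over bases, where the deepest clusters weigh most, they were lower in each replicate and in both classes. At 500 or more, the pooled edit fraction was 0.423%, 0.229% and 0.254%, beside 0.617%, 0.599% and 0.609% over all clusters, and without the intron cluster of PGK1 it was 0.423%, 0.363% and 0.372%. At 50 to 500 it was 0.686%, 0.575% and 0.635%, beside 0.758%, 0.789% and 0.795%. No test was made of these differences. Depth was not matched within a class, and its part in them was not tested. In replicates 1, 2 and 3, edited reads of the glycolysis clusters carried 1.44, 1.53 and 1.24 edited bases each, against 1.59, 1.67 and 1.66 over all clusters. At a depth of 500 or more the order turned in replicates 1 and 2, with 1.45, 1.55 and 1.22 against 1.23, 1.35 and 1.28. In replicate 2 the intron cluster of PGK1 held 121 of the 335 edited reads behind this value, with 1.99 edited bases each. Without that cluster the glycolysis value of replicate 2 over all depths was 1.32, and the value at 500 or more was not analysed here.

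**Figure D2:**
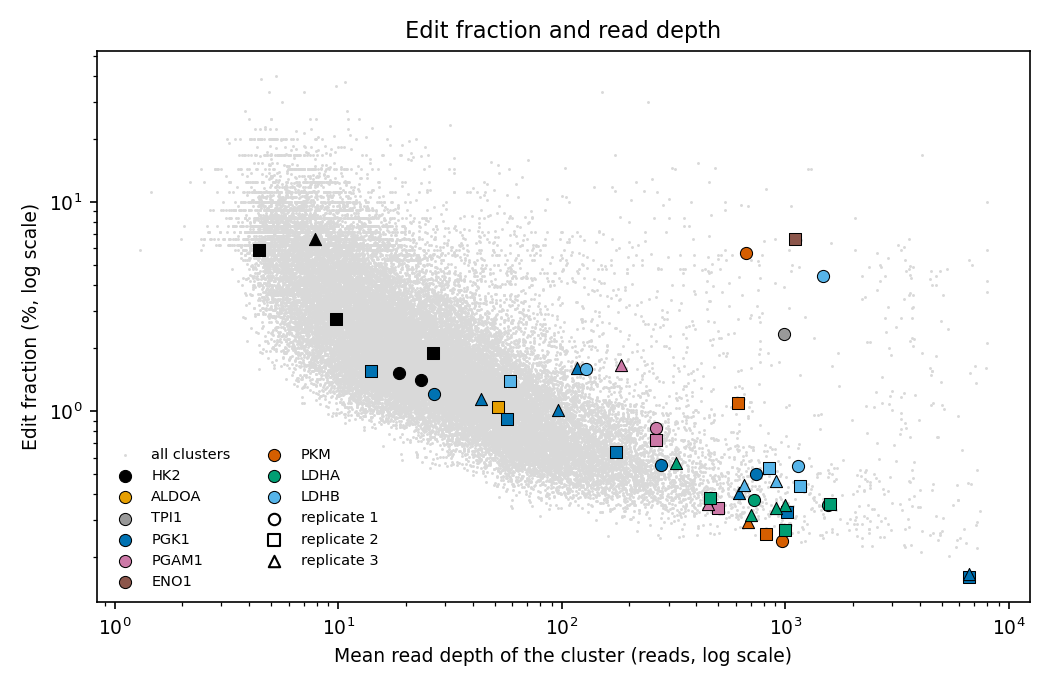
Edit fraction in percent (vertical axis, log scale) against mean read depth (horizontal axis, log scale) for all 40843 clusters in grey and the 49 glycolysis clusters in colour, with the marker shape giving the replicate. Most glycolysis points follow the lower right of the grey cloud, HK2 lies at depths of 4.43 to 26.6, and 4 points with edit fractions above 2% lie at depths above 500.

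Recurrence separated the genes further. A cluster counted as found in all 3 replicates when each of the other two replicates had a cluster of the same strand sharing 1 base or more with it. Of the glycolysis clusters, so did 6 of 14, 7 of 20 and 7 of 15, or 41.5% ± 5.95 (SD, n = 3), beside 11.2% ± 1.71 of all clusters. Among all clusters with a depth of at least 500, the share was 54.4% ± 3.28, and among the glycolysis clusters of that depth 4 of 8, 5 of 10 and 4 of 8 were found in all 3 replicates. At a depth of 50 to 500 it was 2 of 3, 2 of 6 and 3 of 5, beside 23.8%, 22.1% and 28.8% of all clusters. The glycolysis share was thus above that of all clusters in the middle class and not in the deepest, and neither was tested. The middle class does not match depth. Its glycolysis clusters had depths from 128 to 278, 51.8 to 462 and 96.2 to 452 in replicates 1, 2 and 3. The median over all clusters with a depth of at least 50 was 92.2, 92.0 and 88.8. The part of depth in the higher share was not tested. By number of edited reads, 15 of 23 glycolysis clusters with at least 11 edited reads were found in all 3 replicates, 5 of 9 with 4 to 10, and 0 of 17 with fewer than 4. Over all clusters, these shares were 79.6% with at least 11 edited reads, 26.5% with 4 to 10, and 8.99%, 3.93% and 2.21% with 3, 2 and 1.

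Chained by overlap across replicates, the 49 clusters fall into 29 loci. Of these, 7 had a cluster in every replicate, 5 in 2 replicates and 17 in 1. The 7 recurrent loci hold 672 of the 1038 edited reads of these genes, or 64.7%. Over all genes, 1586 of 33244 loci had a cluster in every replicate, with 51.8% of the edited reads. The 7 recurrent glycolysis loci belong to PGK1 and LDHA with 2 each and to LDHB, PKM and PGAM1 with 1 each. Positions are given below in the build hg19 as deposited. All 7 lie in the exon that, among exons of the gene with a cluster, is nearest to the 3' end. Exon numbers in the deposited names rise with the coordinate whatever the strand, in 3530 of 3531 genes with clusters in several exons, so that exon 0 of a gene on the minus strand is at its 3' end. In LDHA, PGAM1 and PGK1 no other exon held a cluster, and whether exons 16, 10 and 24 are the last of these genes was not analysed here. In total 41 of the 46 exonic clusters lay in the exon nearest to the 3' end, a count that includes genes with clusters in 1 exon, where it could not be otherwise. In the genes with clusters in several exons it was 5 of 6 clusters in HK2, 3 of 5 in PKM and 5 of 8 in LDHB. The clusters of LDHB include 1 in an intron. The share over all genes was not analysed here, so the count shows no trait of the glycolysis genes.

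PGK1, on the plus strand of chromosome X, held both of its recurrent loci in exon 24. The first, from 77381467 to 77381572, had 106 edited bases among 21081 covered C bases in replicate 1, 51 among 15404 in replicate 2 and 73 among 17995 in replicate 3. Its edit fraction was 0.503%, 0.331% and 0.406%, or 0.413% ± 0.0861 (SD, n = 3), with replicate 1 highest. The cluster of replicate 2 spans 45 bases of this locus and the clusters of replicates 1 and 3 span 105, so that the values do not rest on the same bases. Edited reads numbered 58 of 1294, 43 of 1225 and 55 of 1063.

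The second locus of PGK1, from 77381602 to 77381752, had edit fractions of 0.551%, 0.638% and 1.29%, or 0.825% ± 0.403 (SD, n = 3). Replicate 3, the highest, is also the least covered, with 932 C bases covered against 5627 and 2508. There the locus sums separate clusters of 45 bases each, with 4 and 5 C bases. The cluster of replicate 1 spans 150 bases with 19 C bases and that of replicate 2 spans 105 with 15. The values therefore do not rest on the same bases. In share of edited reads, the replicates lay closer together, at 4.26%, 2.99% and 3.58%. Along exon 24, depth fell and the edit fraction rose away from the first locus. In replicate 1 the 3 clusters had depths of 740, 278 and 26.8 and edit fractions of 0.503%, 0.551% and 1.21%. In replicate 2 the 4 clusters had depths of 1012, 175, 56.5 and 13.98 and edit fractions of 0.331%, 0.638%, 0.917% and 1.55%, the last of them 1665 bases from the first. Replicate 3 kept the order in depth, at 617, 117, 96.2 and 43.4, but not in edit fraction, at 0.406%, 1.60%, 1.01% and 1.15%. The edit fraction fell with depth over all clusters too, and the part of depth in this trend was not tested.

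**Figure D3:**
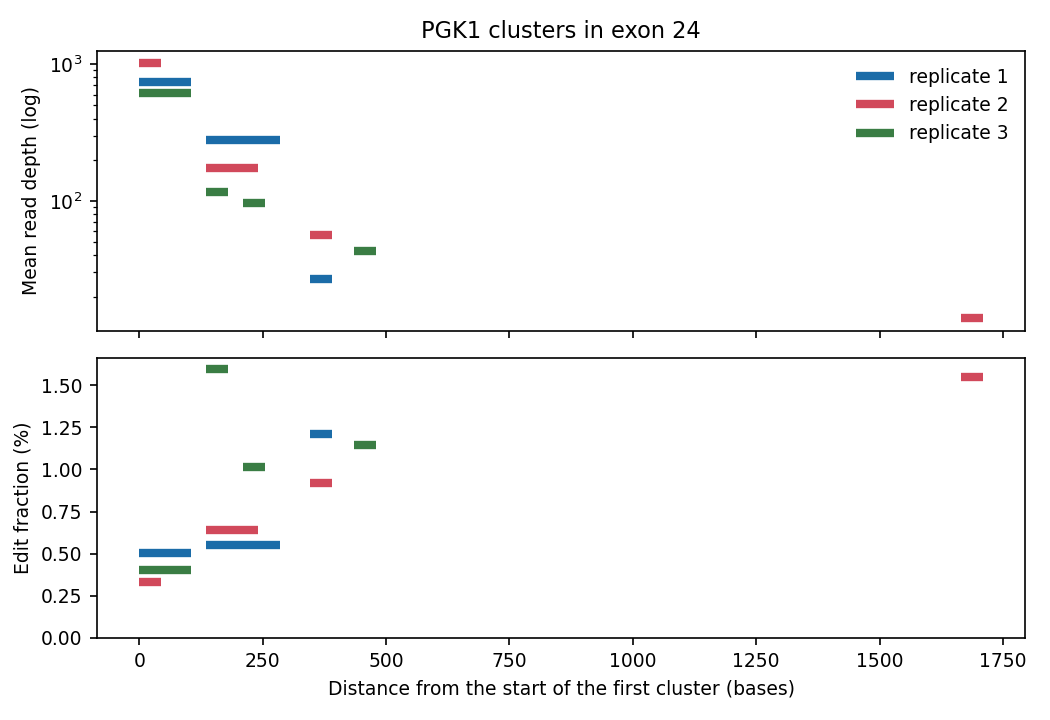
Mean read depth (upper panel, log scale) and edit fraction in percent (lower panel) of the PGK1 clusters in exon 24, drawn as horizontal bars over the bases they span, against the distance in bases from the start of the first cluster. Depth falls from between 617 and 1012 at the first cluster to 13.98 at the last, which was found in replicate 2.

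LDHA, on the plus strand of chromosome 11, held all of its 9 clusters in exon 16. The locus from 18428979 to 18429069 had the steadiest edit fraction of the 7, at 0.354%, 0.360% and 0.346%, or 0.353% ± 0.00698 (SD, n = 3). Its share of edited reads was not as steady, at 1.36%, 1.04% and 2.08%. The cluster of replicate 3 spans 90 bases with 12 C bases, and those of replicates 1 and 2 span 45 with 5. The neighbouring locus from 18428859 to 18428979 had 0.374%, 0.271% and 0.355%. It is a chain in which the cluster of replicate 2 overlaps those of replicates 1 and 3, which do not overlap each other. Edited reads were few in both loci relative to their depth, with 21 of 1901, 28 of 2086 and 15 of 1274 in the first of them along the chromosome and 28 of 2066, 22 of 2114 and 34 of 1634 in the second. A further locus from 18429309 to 18429354 was found in replicates 2 and 3 with 13 of 556 and 6 of 358 reads edited, and a cluster from 18429234 to 18429279 in replicate 3 with 13 of 1128.

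LDHB, on the minus strand of chromosome 12, held its recurrent locus in exon 0 from 21788351 to 21788471. Its edit fraction was 0.547%, 0.534% and 0.444%, or 0.508% ± 0.0562 (SD, n = 3), with 76 of 2028, 58 of 1949 and 38 of 1216 reads edited, or 172 in all, the highest sum of the 7 loci. In replicate 3 the first locus of PGK1 had more edited reads. Next to it, a locus of 30 bases from 21788276 with 2 C bases was found in replicates 1 and 2, with 4 of 305 and 2 of 157 reads edited. Clusters in exon 4 (9 of 1638 reads, replicate 2) and exon 12 (9 of 1207 reads, replicate 3) each appeared in 1 replicate. The exact 95% binomial intervals of their shares run from 0.252% to 1.04% and from 0.342% to 1.41%, and cover counting error only, since PCR copies of a molecule were not told apart.

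PKM, on the minus strand of chromosome 15, had the same cluster of 45 bases in every replicate, in exon 0 from 72491415 to 72491460. It had 49 edited among 20485 covered C bases in replicate 1, 45 among 17428 in replicate 2 and 43 among 14532 in replicate 3. The edit fraction of 0.239%, 0.258% and 0.296%, or 0.264% ± 0.0289 (SD, n = 3), was the lowest of the 7 loci in replicates 1, 2 and 3. Its share of edited reads was not low, at 3.14%, 3.15% and 3.93%. The cluster holds 21 C bases, against 5 C bases in the cluster of equal length of LDHA in replicates 1 and 2, where the edit fraction was higher and 1.36% and 1.04% of reads were edited. The order of loci therefore depends on whether C bases or reads are counted.

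PGAM1, on the plus strand of chromosome 10, had its recurrent locus in exon 10 from 99192787 to 99192892. The edit fraction was 0.827%, 0.728% and 1.65%, or 1.07% ± 0.508 (SD, n = 3), the highest mean and the widest spread of the 7 loci. The clusters of replicates 1, 2 and 3 spanned 105, 75 and 60 bases with 14, 8 and 4 C bases, and reads were edited in 17 of 421, 8 of 329 and 9 of 241 cases. A second locus of PGAM1, from 99192352 to 99192382, was found in replicates 2 and 3 at a nearly equal edit fraction of 0.345% and 0.358%.

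**Figure D4:**
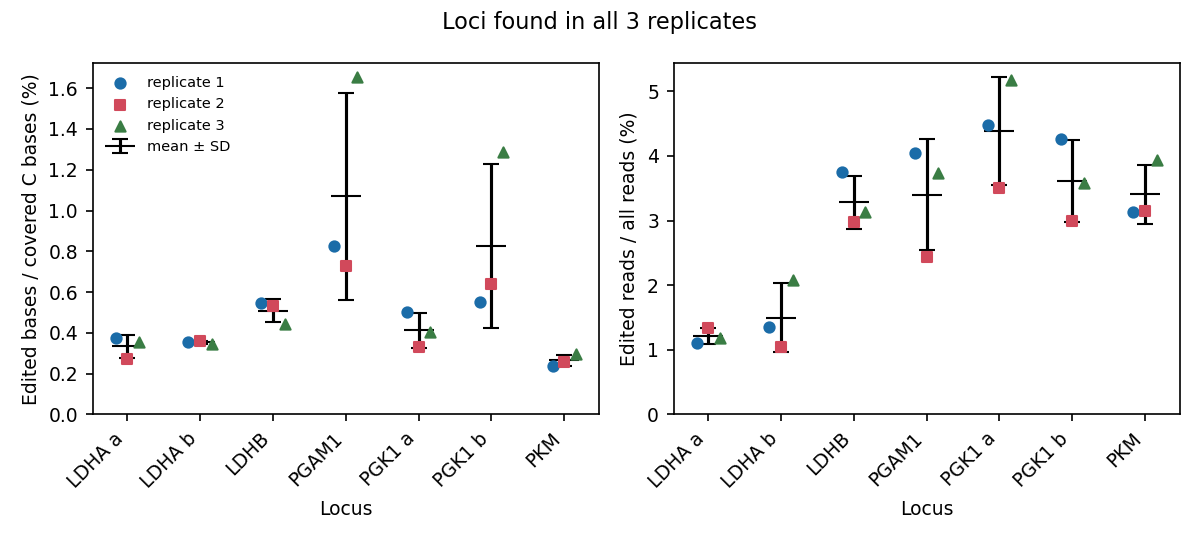
Edit fraction (left) and share of edited reads (right), both in percent, of the 7 loci found in all 3 replicates, with points for replicates and horizontal bars with error bars for mean ± SD (n = 3); letters a and b mark the loci of a gene along the chromosome. PKM is lowest on the left at 0.264%, whereas the LDHA loci are lowest on the right at 1.21% and 1.49%.

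Whether a locus differed between replicates by more than counting error was tested on edited and unedited reads with Fisher's exact test (two-sided, Benjamini-Hochberg over all loci matched between 2 replicates, threshold 0.05). Between replicates 1 and 2, 0 of 9 glycolysis loci passed, beside 0.0944% of 3177 loci over all genes. Between replicates 1 and 3 it was 0 of 6, beside 0.152% of 2623, and between replicates 2 and 3 it was 1 of 10, beside 0.145% of 2760. At an unadjusted p under 0.05 the counts were 0, 0 and 2, beside 2.83%, 3.47% and 2.68% of all loci. The exonic locus among these 2 was that of LDHA from 18428979 to 18429069, with 22 of 2114 reads edited in replicate 2 and 34 of 1634 in replicate 3 (Fisher's exact p = 0.00993, adjusted p = 1). There the clusters span 45 and 90 bases. A longer cluster takes in more reads and more C bases, and few edited reads leave the test little power, so a p that misses the threshold does not show that replicates were alike.

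The locus that passed was the intron cluster of PGK1, in intron 3 from 77359525 to 77359570, which was found in replicates 2 and 3 and not in replicate 1. Its place in PGK1 rests on the deposited name, and whether its reads come from transcripts of this gene was not tested. The intron cluster lies 21897 bases before the first cluster of exon 24 and stood apart from all other glycolysis clusters in depth. Its mean read depth was 6597 and 6634, which is 6.52 and 10.7 times that of the deepest exonic PGK1 cluster of the same replicate and ranks 8 and 2 from the highest of all clusters there. With 14849 and 9070 reads it took 51.2% and 47.5% of the reads in glycolysis clusters. Its edit fraction was 0.160% and 0.166% and its score 0.0194 and 0.0610. Both are the lowest of the whole replicate, where the next lowest edit fractions were 0.221% and 0.212% and the next lowest scores 0.833 and 0.797. Reads were edited in 121 of 14849 and 131 of 9070 cases, or 0.815% and 1.44% (Fisher's exact test, adjusted p = 0.00809). Counted by bases, 241 of 150185 and 154 of 92574 were edited, and the difference did not pass the threshold (Fisher's exact test, adjusted p = 1). An edited read thus carried 1.99 edited bases in replicate 2 and 1.18 in replicate 3. Coverage per C base was 1.63 times the mean read depth in replicate 2 and 0.997 times in replicate 3, and the part of this in the difference in reads was not tested. It came to 10727.5 and 6612, against 1027 and 692 in the deepest exonic PGK1 cluster. The ratios of 6.52 and 10.7 therefore hold for mean read depth only.

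By gene, the pooled edit fraction over all clusters of a replicate gave an order from PKM over PGK1, LDHA, LDHB and PGAM1 to HK2. PKM had 0.249%, 0.267% and 0.296%, PGK1 0.517%, 0.186% and 0.218%, and LDHA 0.365%, 0.323% and 0.357%. LDHB had 0.571%, 0.529% and 0.448%, PGAM1 0.827%, 0.463% and 0.539%, and HK2 1.47%, 2.63% and 6.67%. Of the 5 pairs of neighbours in this order, the replicates of LDHA and LDHB and those of PGAM1 and HK2 did not overlap. LDHB exceeded LDHA by 0.168 percentage points (exact permutation test, two-sided, p = 0.10, the smallest that 3 against 3 values can give, adjusted p = 0.25). Taken within replicates, since both genes were measured in the same libraries, the difference was 0.206, 0.206 and 0.091 percentage points in replicates 1, 2 and 3 (exact permutation of the signs, two-sided, p = 0.25, the smallest that 3 differences can give). HK2 also exceeded PGAM1 in each replicate (exact permutation of the signs, p = 0.25). Neither design could reach 0.05. Neighbours, here and below, were taken from the order of the same values that were tested, so the p-values lend that order no support. HK2 was read at depths of 4.43 to 26.6 and PGAM1 at 184 to 500. In replicate 3, HK2 had 15 covered C bases, 1 of them edited. Over all clusters the edit fraction fell with depth, and the part of depth in the difference between HK2 and PGAM1 was not tested. The other 3 pairs overlapped, and their differences within replicates were not of the same sign. Without the intron cluster and the clusters of low C coverage, PGK1 had a mean of 0.458% and stood above LDHA. The range of PGK1 then overlapped neither that of LDHA nor that of PKM, and those of PKM and LDHA did not overlap in either set. For PKM and LDHA and for LDHA and PGK1, the exact permutation test gave p = 0.10 (adjusted p = 0.167). Paired by replicate, the exact permutation of the signs gave p = 0.25 for each (adjusted p = 0.417). Whether LDHA and LDHB differ beyond the bases that happened to be called in each was not tested.

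HK2 differs from the other genes with clusters in 3 replicates in that none of its loci recurred. Its 6 clusters, on the plus strand of chromosome 2, lie at 6 separate places, 5 of them in exon 36 between 75118464 and 75119619 and 1 in exon 30. Depth ran from 4.43 to 26.6 and reads numbered 6 to 32 per cluster, of which 1 to 3 were edited. The edit fractions ran from 1.41% to 6.67%, and the 3 clusters with a depth under 10 had the highest of them. The cluster with the highest edit fraction, in exon 30, rests on 1 of 11 reads, a share of 9.09% with an exact 95% binomial interval from 0.230% to 41.3%.

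ALDOA, TPI1 and ENO1, the aldolase, triosephosphate isomerase and enolase of the pathway, each had 1 cluster. In ALDOA it was in exon 8 on chromosome 16 from 30075730 to 30075760 with 3 of 79 reads edited in replicate 2, an edit fraction of 1.04%. In TPI1 it was in exon 2 on chromosome 12 from 6977504 to 6977549 with 2 of 988 reads edited in replicate 1. In ENO1 it was in exon 18 on chromosome 1 from 8931066 to 8931096 with 1 of 1107 reads edited in replicate 2. The shares of edited reads in TPI1 and ENO1, 0.202% and 0.0903%, were low, yet their edit fractions were 2.33% and 6.67%, because few C bases counted as covered.

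In 5 glycolysis clusters the covered C bases fell far short of the depth. Coverage per C base, which divides the covered C bases by the number of C positions in the cluster, was 4.30 in TPI1 at a mean read depth of 986 and 5.00 in ENO1 at 1107. It was 7 at a depth of 667 in PKM exon 2 (replicate 1), 12.3 at 616 in another cluster of PKM exon 2 (replicate 2) and 4.09 at 1475 in LDHB intron 5 (replicate 1). In the other 44 clusters it was at least 0.505 of the depth, a value set by ALDOA, and in 43 of them at least 0.839. These 5 clusters include 4 of the 7 glycolysis clusters with an edit fraction above 2%, and the other 3 are in HK2. None of the 5 recurred in another replicate. Each rests on 1 or 2 edited reads, from a share of 0.0678% to 0.323% of all reads there.

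Over all clusters, a coverage per C base under 0.1 of the depth, a limit chosen after the values were seen, was met by 1.26%, 1.47% and 0.933%. Among clusters with a depth of at least 500 it was 23.9%, 26.9% and 19.0%, and the glycolysis clusters of that depth had 3 of 8, 2 of 10 and 0 of 8. Without these clusters, the median edit fraction at this depth was 0.374%, 0.338% and 0.350% in the glycolysis genes beside 0.411%, 0.404% and 0.425% over all genes. On these values the glycolysis clusters were lower in each replicate, by less than 0.1 percentage points in the median. Pooled over bases they had 0.416%, 0.228% and 0.254%, beside 0.609%, 0.593% and 0.606%, and no test was made of these differences. In replicates 2 and 3 these pooled values still hold the intron cluster of PGK1. Without it, but with clusters of low C coverage kept, the values at this depth were 0.363% and 0.372%. Once the clusters of low C coverage were left out, TPI1 and ENO1 held no cluster.

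**Figure D5:**
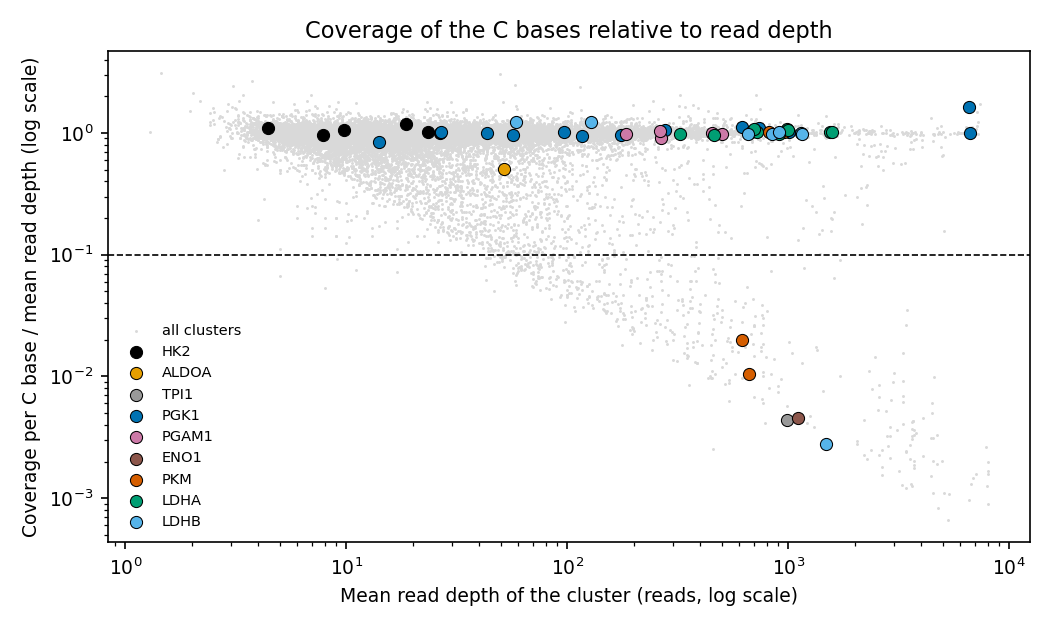
Coverage per C base divided by mean read depth (vertical axis, log scale) against mean read depth (horizontal axis, log scale), for all clusters in grey and glycolysis clusters in colour, with a dashed line at 0.1. The 5 clusters of PKM, TPI1, ENO1 and LDHB below the line lie at depths from 616 to 1475, while PGK1 in replicate 2 lies above 1 at 1.63.

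Of 59 other genes of glucose metabolism (isoenzymes, glucose and lactate carriers, pyruvate dehydrogenase, the malate shuttle and the pentose phosphate pathway), 15 had a cluster in each replicate, 12 in 2, 8 in 1 and 24 in none. The 15 are ADPGK, ENO2, BPGM, PFKFB3, TIGAR (listed as C12orf5), SLC16A1, BSG, PDHA1, PDHB, DLAT, DLD, PDHX, MDH1, GOT1 and TALDO1. Of all 9904 gene names with a cluster, 37.9% had one in each replicate, against 15 of 35 here and 6 of 9 among the 10 enzymes. Loci found in all 3 replicates were seen in 4 of these genes, BSG and TIGAR with 2 and BPGM and PDHA1 with 1, and in 1274 of the 9904 gene names. BSG, a chaperone of the lactate carriers, was the deepest of the 15, with a median depth of 392, a median edit fraction of 0.368% and 102 edited reads, beside 909, 0.355% and 180 in LDHA. PDHA1, a subunit of pyruvate dehydrogenase, had a median edit fraction of 1.69% at a median depth of 39.8, with 94 edited reads. BPGM, which makes 2,3-bisphosphoglycerate, had 1.26% at 30.4, and TIGAR, a fructose bisphosphatase, 2.07% at 22.2, each with 28 edited reads. ENO2, the neuronal enolase, had 3 clusters in each replicate at a median depth of 24.3 where ENO1 had 1 in all. The median over genes of their depths was 33.2 in the 35 with a cluster, against 681 in the 9 of the 10 enzymes with a cluster. The value of 681 counts TPI1 at 986 and ENO1 at 1107, whose only clusters were among those of low C coverage.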

How the data were processed

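Polyadenylated RNA of 3 replicates was sequenced. The authors aligned reads (STAR and hg19, per the submitters' processing notes), called C-to-U positions with SAILOR without common SNPs, tested windows of 30 bases with FLARE at an adjusted p-value of 0.1 and merged those within 15 bases, each replicate alone. For each cluster the authors deposited counts, not normalized, of edited bases and of the C bases under reads, and of reads with and without an edit. The deposited edit fraction equals the ratio of the base counts in every cluster. The mean depth the authors deposited is a coverage signal, not scaled to library size, and their score runs from 0 to 1. Total library depth was not analysed here, and few edited reads limit precision. Whether positions count from 0 or 1 is not given in the sources used here.

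Clusters were matched by strand and at least 1 shared base, and for Fisher's exact test each paired with its largest overlap. Tests ran in SciPy 1.17.1 and figures in matplotlib 3.10.9, with pandas 2.3.3 and NumPy 2.4.6 under Python 3.11.15. The code was tested on simulated data. Genes, lists and loci (those found in all 3 replicates, the other clusters by gene) were chosen with earlier results of these data known. The limits on C coverage and the depth class of 500 were set after the values were seen. Older symbols were matched through RefSeq (GRCh38.p14). No sequence is printed, as a genome of the build was not used here.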

Additional observations from a re-analysis of the deposited data

Results flagged for a closer look

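Editing in pseudogenes of the 10 genes lies outside the comparisons above and is listed because it is present at all, with no control samples to set it against. TPI1P1 held 1 cluster on chromosome 1 from 77165669 to 77165714 in replicate 3, with 5 edited bases among 664 covered C bases (0.753%) and 3 of 85 reads edited. ENO1P4, whose clusters also carry the name TMEM237, held 1 cluster in replicate 1 with 2 edited bases and 2 in replicate 3 with 1 and 5 edited bases, the last on chromosome 2 from 202488942 to 202489032 with 3 of 53 reads edited. None of the 4 was found in a second replicate. Reads of near-identical copies can be placed in either, and this was not tested.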

How the results depend on the processing

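Clusters that failed the filter were not analysed here, and the count of edited reads limits each locus. No paired analysis was possible because there is 1 group, so replicate numbers pair no conditions. Neighbouring genes paired by replicate, an alternative added after the data were seen, gave exact p-values of 0.25 to 1. The number of glycolysis clusters per replicate moved from 16.3 to 9.67 at a score of at least 0.99, and their pooled edit fraction from 0.326% to 0.463%. It was 1.81% when edited reads over all reads were counted. The share found in all 3 replicates moved from 41.5% to 55.2% at a score of at least 0.99, to 50.7% at a depth of at least 50 and to 25.1% with an overlap of 50% of both clusters, and was 44.8% to 61.7% with 1 replicate left out, where overlap in both others suffices. The median edit fraction was 0.715%, and the mean in its place 1.33%. The locus that differed between replicates, the PGK1 intron cluster, made 1 call, and 0 calls were made with edited bases over covered C bases or at scores from 0.95 upwards, which removes that cluster. With an overlap of 50%, at least 50 reads, or equal start and end (the last chosen after the data were seen), its adjusted p in Fisher's exact test was 0.00522, 0.00456 and 0.00148. The other 25 values for these results stayed within 1.5 times the count or within 1 SD of the 3 replicates. Leaving out 1 replicate gave 14.5 to 17.5 clusters, a pooled edit fraction of 0.260% to 0.365%, a median of 0.563% to 0.851% and a share with a depth of at least 50 of 79.3% to 83.3%. By gene, HK2 held no cluster at a depth of at least 50, and PGAM1 had 1.07% in place of 0.609% in recurrent loci alone.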
